A study of Mus musculus with 39 samples.

Results

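Resistin and its relatives are small secreted proteins rich in cysteine. Chitinase-like proteins are secreted lectins that keep the fold of an ancestral chitinase, in most cases without its enzyme activity. In rodents, members of both families and arginase 1 rank among the best known genes of alternatively activated macrophages, which form under interleukin 4 and interleukin 13 through the receptor chain IL-4Rα and the transcription factor STAT6, and several of them are also made by airway and gut epithelium. The 8 genes described here are Retnla, Retnlb and Retn of the resistin family, Chil1, Chil3, Chil4 and Chia1 of the chitinase family, and Arg1. They were found by symbol among the 55357 genes of each tissue's table. They were chosen by family name with earlier results of these data in view. Those results held the FPKM of Retnla in KO lungs with AP against WT lungs with AP, so for the 8 genes that contrast is a description, with no p and no call for any of them.

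Messenger RNA was sequenced from lung and colon of C57BL/6N mice that lacked Cd177 (KO) or were wild type (WT), after acute pancreatitis (AP) or a sham operation. Cd177 codes for a surface protein of neutrophils, and AP is inflammation of the pancreas, which can harm distant organs such as lung and gut. The groups in each tissue were KO with AP, KO with sham operation, WT with AP and WT with sham operation, with 5 libraries each except 4 in KO colon with AP, 39 in all. How AP was induced, the time of sampling, the age of the mice, how the deletion was made and whether each library is a separate animal are not given in these sources, so p-values measure the spread between libraries.

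Levels are FPKM, fragments per kilobase of transcript, scaled to the number of fragments in the library, and differences are on the log2(FPKM + 1) scale, which understates the change of genes near 0. The test was limma's, with Benjamini-Hochberg adjustment over all genes tested in a tissue and a threshold of 0.05. Where groups are said not to overlap, this describes the libraries of that gene alone. The share of all genes whose groups do not overlap was not worked out. Cd177 was listed at 0 in every KO library, against 1.3 to 4.18 FPKM in WT lungs and 38.5 to 76.4 FPKM in WT colons. Library depth, worked out from the steps between low FPKM values, was 77.0 to 95.4 M (mega) reads in KO lungs and 57.9 to 71.2 M reads in WT lungs. In colon it was 77.7 to 98.6 M reads in KO and 55.6 to 78.3 M reads in WT. Within each treatment every KO colon was deeper than every WT colon. With AP the margin was narrow, from 78.27 M reads in the deepest WT colon to 78.45 M reads in the shallowest KO colon. Genotype and depth cannot be told apart in either tissue. Libraries whose mean correlation with their own group was under 0.94 were 3 in lung (KO with AP replicate 3, KO with sham replicates 4 and 5) and 3 in colon (KO with AP replicates 1 and 4, KO with sham replicate 5). Values that move by over 1.5 times or change their call without them are given both ways. Markers went with the tissue labels. Alveolar type 2 markers summed to at least 12709 FPKM in each lung and at most 57.2 FPKM in each colon, and colon epithelium markers to at most 1.84 FPKM in each lung and at least 1756 FPKM in each colon. Eosinophil markers, of cells that go with type 2 inflammation, summed to at most 2.04 FPKM in any library.

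The genes differed in level by orders of magnitude between tissues, given here side by side without a test because the tables were made separately. Retnla, Chil1, Chil3 and Chia1 were lung genes, with medians of at least 25.0 FPKM in each lung group and at most 5.90 FPKM in any colon group. Retnlb was a colon gene. Arg1 and, in most libraries, Retn were low in both tissues. Chil4 was at or near 0 in both. The filter for low values asked for 1 FPKM or more in 4 or more of a tissue's libraries. It was passed by 6 of the 8 genes in lung, without Retnlb and Chil4, and by 6 of the 8 in colon, without Chil4 and Chia1.

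**Figure D1:**
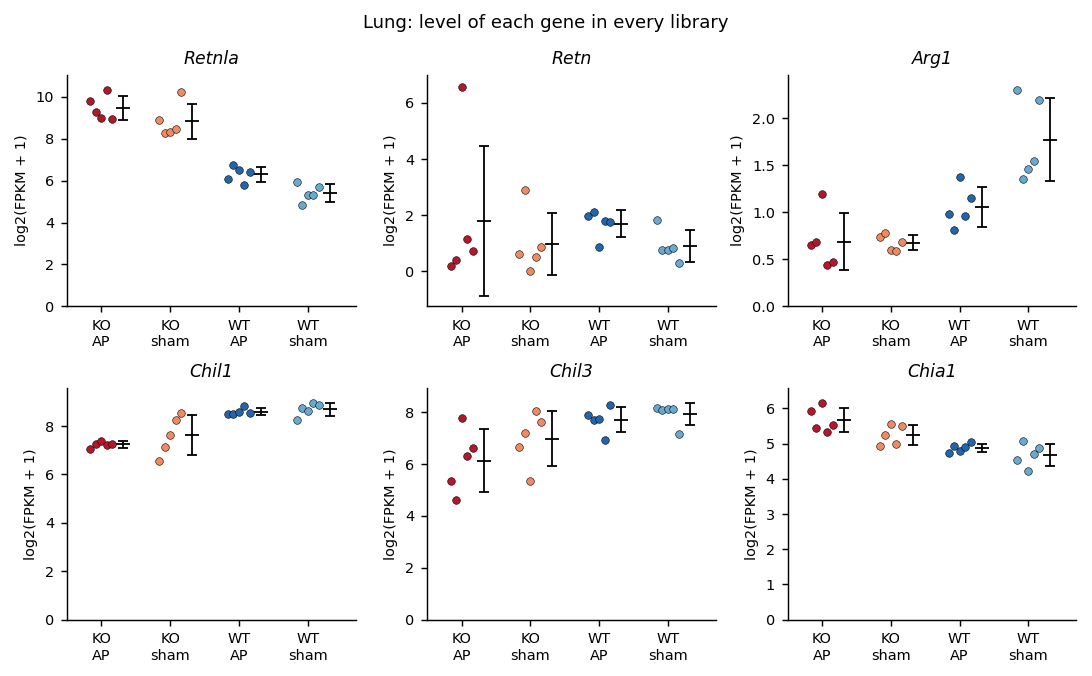
Level of 6 genes in every lung library, as log2(FPKM + 1), by group; each point is 1 library and the bar beside it is the group's mean ± SD. Retnla is higher in all KO libraries than in any WT library, and 1 KO library with AP stands far above the rest for Retn.

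Among the resistin family, Retnla had the highest level in lung and the widest gap between genotypes. Its product, RELMα or FIZZ1, is secreted in mice by alternatively activated macrophages and by airway and alveolar epithelium, and limits type 2 inflammation and takes part in repair. With AP, Retnla stood at 886, 612, 501, 1290.0 and 496 FPKM in the KO lungs, against 65.6, 106, 88.7, 54.6 and 83.0 FPKM in the WT lungs. After sham operation it stood at 470.3, 303, 315, 349 and 1181 FPKM in the KO lungs, against 60.3, 27.1, 38.6, 38.7 and 51.0 FPKM in the WT lungs. Every KO lung lay above every WT lung in both treatments, and the lowest KO library, at 303 FPKM, was still far above the highest WT library, at 106 FPKM. The group means were 757 ± 337 FPKM in KO lungs with AP and 79.5 ± 20.0 FPKM in WT lungs with AP (SD, n = 5 each), a ratio of 9.52. After sham operation they were 524 ± 373 FPKM in KO lungs and 43.1 ± 12.8 FPKM in WT lungs (SD, n = 5 each), a ratio of 12.1. Retnla rose in the KO lungs with sham operation by 3.40 ± 0.34 on the log2 scale (SE; limma adjusted p = 3.01e-07), and the difference in AP was 3.17 ± 0.34. Retnla has a single transcript in the annotation, so reads could be recovered: 16566 to 65087 per KO lung and 939.9 to 4096 per WT lung, so counting error is small beside the spread between libraries. Library depth and the 3 least alike libraries, all KO, go with genotype here; without those 3 libraries the sham difference was 3.06. Across the 8 groups the order of mean levels was KO lung with AP, KO lung with sham, WT lung with AP, WT lung with sham, then the colon groups. KO lungs with AP and with sham overlapped, as did WT lungs with AP and with sham, so within a genotype the order of treatments does not hold beyond the spread.

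The promoter of Retnla, the 250 bases before the gene's start, is shown because the gene is a textbook STAT6 target and carries the widest difference. Capitals mark the match to the STAT6 letters, TTC and GAA with 4 bases between them, at 145 to 136 bases before the start and the TATA letters TATAAA at 30 to 25 bases before it. The sequence is RefSeq's, GRCm38.p6 chr16:48842359-48842608, plus strand; the deposited values were made on mm39.

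Retnla: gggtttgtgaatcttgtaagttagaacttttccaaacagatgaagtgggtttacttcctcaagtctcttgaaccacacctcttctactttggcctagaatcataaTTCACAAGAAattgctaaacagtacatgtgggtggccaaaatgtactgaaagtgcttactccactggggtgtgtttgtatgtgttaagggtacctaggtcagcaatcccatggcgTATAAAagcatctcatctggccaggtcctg

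Of the 8 genes, 6 had a promoter in the table used, all but Retnlb and Arg1. The STAT6 letters, searched on both strands, were found in 1 of the 6, that of Retnla, and in 5.85% of all 32851 promoters of this window. The letters ACGTG, the core of a hypoxia response element, were found in none of the 6 and in 16.6% of all promoters. TATAAA was found in those of Retnla, Chil4 and Chia1, and in 12.4% of all promoters. A match describes letters and is not a bound site.

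Retnlb, which codes for RELMβ, a product of intestinal goblet cells that acts against worms and bacteria, was near 0 in lung. KO lungs with AP were listed at 0.154, 0, 0, 0.495 and 0 FPKM and WT lungs with AP at 0.0908, 0, 0, 0 and 0 FPKM. KO lungs with sham operation were listed at 0.425, 0.283, 0.123, 0 and 0.373 FPKM, and all 5 WT lungs with sham at 0. A count of 0, which allows 3 reads, corresponds to at most 0.0745 FPKM in WT lungs with sham, and 4 of the 5 KO lungs with sham were above that (counting error only). The gene did not pass the filter in lung and was not tested there.

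Retn, the gene for resistin, which in mice is a hormone of fat cells, had single lung libraries far above the rest of their group. With AP it was at 0.145, 0.323, 92.7, 1.22 and 0.653 FPKM in KO lungs and at 2.94, 3.35, 0.818, 2.47 and 2.38 FPKM in WT lungs. After sham operation it was at 0.544, 6.40, 0, 0.433 and 0.825 FPKM in KO lungs and 2.56, 0.704, 0.693, 0.799 and 0.232 FPKM in WT lungs. One KO lung with AP, replicate 3, was at 92.7 FPKM and the other 4 were between 0.145 and 1.22 FPKM. The KO minus WT difference was 0.10 ± 0.86 in AP and 0.08 ± 0.86 in sham (SE), neither beyond its error, and the sign turned to -0.22 and -0.14 on the TPM scale. Without KO replicate 3 the difference in AP was -1.08 ± 0.44 (SE) in place of 0.10. Without the 3 least alike libraries the difference was -1.08 in AP and 0.27 in sham. In lung, 11 of the 12 adipocyte markers passed the filter, none was listed at 0 throughout, and 1 was higher and 0 lower in KO with AP than in WT with AP. Their summed level was 4055 FPKM in the same KO replicate 3 and 52.3 to 77.8 FPKM in the other 4 KO lungs with AP, against 111 to 233 FPKM in WT lungs with AP, 52.4 to 191 FPKM in KO lungs with sham and 73.9 to 234 FPKM in WT lungs with sham. After each group's mean was taken out, the genes most like Retn over the 20 lung libraries were Adipoq, Car3 and Fabp4 (Pearson r = 0.965, 0.959 and 0.955), a description that rests in large part on that library. The part of adipose tissue in the Retn levels was not tested. In bulk tissue fewer cells of a type and less RNA per cell cannot be told apart.

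**Figure D2:**
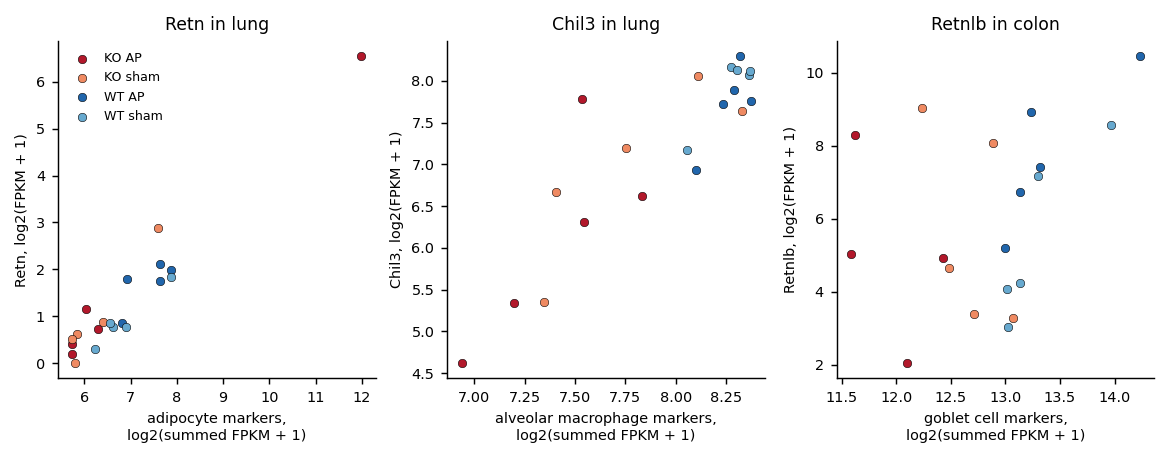
Per library, the level of a gene against the summed level of a marker list, both as log2(FPKM + 1): Retn and adipocyte markers in lung, Chil3 and alveolar macrophage markers in lung, Retnlb and goblet cell markers in colon. The KO lung at the upper right of the Retn panel is replicate 3 with AP, at 92.7 FPKM of Retn and 4055 FPKM of the markers.

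In the chitinase family, mean levels of Chil1 and Chil3 in lung were lower in KO than in WT and that of Chia1 was higher, in both treatments; in sham, Chil1 and, except on the TPM scale, Chia1 passed the threshold and Chil3 did not. With AP, the differences of the 6 genes that passed the filter ran from -1.59 for Chil3 to 3.17 for Retnla, and 55.8% of all genes tested were past the threshold in that contrast, 27.6% as higher and 28.1% as lower. With sham operation 2 (Retnla and Chia1) rose and 2 (Chil1 and Arg1) fell in KO, and 58.8% of all genes were past the threshold, 28.8% as higher and 30% as lower. On the TPM scale, where each library is set to the same total, the genes past the threshold were 2965 higher and 5492 lower in AP, and 2891 higher and 6209 lower in sham. The count in sham is near that background and is no result about these genes. Their median difference was -0.13 in AP and -0.43 in sham, beside 0.00 and -0.01 over all genes. Most of the genes tested differed between KO and WT lungs. The value of each gene, and the count of each lung list, markers included, is to be read against that.

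Chil1 codes for BRP-39, the mouse counterpart of human YKL-40, a lectin of macrophages and lung epithelium that restrains cell death in injured lung. With AP it was at 130.3, 153, 167, 149 and 153 FPKM in KO lungs, against 356, 361, 377, 454 and 374 FPKM in WT lungs. The 2 sets did not overlap, and the KO lungs with AP were closely alike (150.4 ± 13.3 FPKM in KO and 384 ± 40.0 FPKM in WT; SD, n = 5 each). With sham operation it was at 91.7, 140.4, 199.6, 306 and 372 FPKM in KO lungs, against 307, 428, 395, 491 and 462 FPKM in WT lungs. Here the KO lungs spread widely and the highest overlapped the WT range. In KO lungs with sham Chil1 fell by 1.06 ± 0.26 on the log2 scale (SE; limma adjusted p = 0.00192), and the difference in AP was -1.35 ± 0.26. The 2 KO sham lungs with the highest Chil1, replicates 4 and 5, are among the least alike libraries, and without the 3 such libraries the sham difference was -1.58. Markers of alveolar type 2 cells, the surfactant-making epithelium, were lower in 7 of 9 and higher in 0 of 9 in KO with AP, and lower in 6 of 9 and higher in 0 of 9 in KO with sham. Their summed level was 19845 to 23524 FPKM in KO lungs with AP, 12709 to 77859 FPKM in KO lungs with sham, 21792 to 33782 FPKM in WT lungs with AP and 19305 to 29398 FPKM in WT lungs with sham, most of it Sftpc, and no marker was listed at 0 throughout. With group means taken out, Chil1 was most like Lhfp, Tfpi and Napsa, the last an alveolar type 2 marker (r = 0.956, 0.939 and 0.922 over 20 libraries). The part of alveolar type 2 cells in the Chil1 difference was not tested.

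Chil3 codes for Ym1, a lectin without chitinase activity that resting alveolar macrophages of the mouse make in large amounts. With AP it was at 39.5, 23.6, 219, 78.1 and 97.2 FPKM in KO lungs, against 236, 209.9, 215, 121 and 313 FPKM in WT lungs. In the sham groups it was at 100.4, 146, 39.9, 266 and 199 FPKM in KO lungs, against 287, 269, 279, 276 and 143 FPKM in WT lungs. The ranges overlapped in both treatments, and KO lungs varied more, 91.5 ± 77.1 FPKM with AP and 150.2 ± 87.3 FPKM with sham, than WT lungs, 219 ± 68.5 FPKM with AP and 251 ± 60.6 FPKM with sham (SD, n = 5 each). The KO minus WT difference was -1.59 ± 0.50 in AP. In sham it was -0.95 ± 0.50 (SE), which missed the threshold (limma adjusted p = 0.109); it passed on the TPM scale (-1.23, adjusted p = 0.0432), without KO sham replicate 4 (-1.22, adjusted p = 0.0449; -0.54 without KO sham replicate 3) and without the 3 least alike libraries (-1.53, adjusted p = 0.00598). All 12 alveolar macrophage markers passed the filter; 10 were lower and 1 higher in KO with AP, and 5 were lower and 1 higher in KO with sham. Their summed level was 122 to 227 FPKM in KO lungs with AP, against 273 to 330.0 FPKM in WT lungs with AP. In sham it was 162 to 320.3 FPKM in KO lungs, against 265 to 329 FPKM in WT lungs. Ear1, an eosinophil-associated ribonuclease gene of alveolar macrophages, differed by -2.62 ± 0.41 in AP and by -1.95 ± 0.41 in sham, and Siglecf, a sialic acid receptor on the same cells, by -1.21 ± 0.26 and -1.29 ± 0.26 in the same order. The genes most like Chil3 with group means taken out were Ear1, Arl11 and Fpr1 (r = 0.919, 0.917 and 0.902 over 20 libraries). Of 14 neutrophil markers tested, 1 was higher and 4 lower in KO with AP, and 2 higher and 0 lower in KO with sham. On the TPM scale these counts were 1 and 6 in AP and 0 and 0 in sham. The markers summed to 258 to 745 FPKM in KO lungs with AP and 657 to 948 FPKM in WT lungs with AP. In sham the sum was 119 to 3052 FPKM in KO lungs and 160 to 400 FPKM in WT lungs. The part of alveolar macrophages or of neutrophils in the Chil3 difference was not tested.

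Chil4 codes for Ym2, a near copy of Ym1 known from the epithelium of allergic mouse airways. It was listed at 0, 0, 0.136, 0 and 0 FPKM in KO lungs with AP and at 0.441, 0.281, 0.291, 0.0440 and 0.418 FPKM in WT lungs with AP. The sham libraries were listed at 0, 0.0498, 0, 0.125 and 0.127 FPKM in KO lungs and 0.146, 0, 0.290, 0.264 and 0 FPKM in WT lungs. In colon only 1 of 19 libraries, WT sham replicate 3, was above 0, at 0.00848 FPKM. The longest transcripts of Chil3 and Chil4 are 94.4% identical over 1538 aligned bases, with a run of 136 identical bases, so reads can be shared between them and the low Chil4 values beside a high Chil3 are uncertain.

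The promoters of this pair are shown because the genes are near copies that lie side by side on chromosome 3 and yet differ by a wide margin in level. Both are RefSeq's, GRCm38.p6, minus strand, 250 bases before each start: Chil3 at chr3:106167565-106167814 and Chil4 at chr3:106219480-106219729. Capitals mark TATAAA, found for Chil4 at 31 to 26 bases before the start and not in the Chil3 window.

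Chil3: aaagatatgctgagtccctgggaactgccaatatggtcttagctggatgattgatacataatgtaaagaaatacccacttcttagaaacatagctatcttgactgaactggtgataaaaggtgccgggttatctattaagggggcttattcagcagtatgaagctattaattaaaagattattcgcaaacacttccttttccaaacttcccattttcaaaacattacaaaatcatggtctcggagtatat
Chil4: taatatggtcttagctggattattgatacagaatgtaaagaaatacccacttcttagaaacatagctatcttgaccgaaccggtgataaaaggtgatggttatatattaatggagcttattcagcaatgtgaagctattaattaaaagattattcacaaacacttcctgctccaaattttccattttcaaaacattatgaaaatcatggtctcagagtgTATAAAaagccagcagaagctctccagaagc

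Aligned, they were 91.0% identical over 221 bases, so the 2 windows are offset from each other by the annotated starts and the absence of TATAAA from one says only that these letters are not in that window.

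Chia1 codes for acidic mammalian chitinase, the member that still cuts chitin, made in mice by lung epithelium and stomach. With AP it was at 59.5, 42.4, 70.1, 39 and 45.5 FPKM in KO lungs, against 25.6, 29.3, 26.7, 28.9 and 31.8 FPKM in WT lungs, without overlap. With sham operation it was at 29.2, 36.8, 46.3, 30.7 and 44.6 FPKM in KO lungs, against 22.3, 32.4, 17.5, 25.0 and 28.1 FPKM in WT lungs, with overlap. Chia1 rose in KO lungs with sham by 0.57 ± 0.17 on the log2 scale (SE; limma adjusted p = 0.00881), and the difference in AP was 0.80 ± 0.17. On the TPM scale, which moves the median of all genes to -0.18 in AP and -0.26 in sham, the sham difference was 0.30 and missed the threshold (adjusted p = 0.166). In colon Chia1 was at or under 0.0578 FPKM in all 19 libraries. Of the 8 gastric markers Gkn1 was listed at 0 in every lung library and 3 passed the filter, of which 0 passed the threshold in AP and 1, Tff1, was higher in KO with sham. They summed to 11.9 to 75.8 FPKM in KO lungs with AP, 1.35 to 55.7 FPKM in KO lungs with sham, 10.2 to 20.8 FPKM in WT lungs with AP and 4.02 to 22.1 FPKM in WT lungs with sham, and their part in the Chia1 levels was not tested.

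Arg1 codes for arginase 1, which takes arginine to ornithine and urea and competes with nitric oxide synthase for it. It was low in lung. With AP it was at 0.573, 0.607, 1.28, 0.362 and 0.387 FPKM in KO lungs and 0.970, 0.762, 1.60, 0.95 and 1.23 FPKM in WT lungs. After sham operation the level was at 0.668, 0.712, 0.521, 0.507 and 0.602 FPKM in KO lungs, against 3.94, 1.56, 1.74, 1.93 and 3.58 FPKM in WT lungs. The sham groups did not overlap, and the AP groups did through KO replicate 3, at 1.28 FPKM. In KO lungs with sham Arg1 fell by 1.09 ± 0.18 on the log2 scale (SE; limma adjusted p = 5.10e-05; -1.83 with a pseudocount of 0.1). KO replicate 3 with AP was the only KO lung at 1 FPKM or more. Arg1 thus passed the filter in lung through WT libraries, where it is high, and the p-value is no support for a lower level in KO. In AP the difference was -0.37 ± 0.18, against -0.78 with a pseudocount of 0.1, -0.62 on the TPM scale and -0.50 without KO replicate 3. Monocyte and macrophage markers were lower in 6 of 11 and higher in 0 of 11 in KO with AP, and lower in 4 and higher in 3 of 11 in KO with sham, with summed levels of 1231 to 3008 FPKM in KO lungs with AP, 1052 to 5112 FPKM in KO lungs with sham, 3697 to 4069 FPKM in WT lungs with AP and 3596 to 4598 FPKM in WT lungs with sham. Their part in the Arg1 difference was not tested.

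**Figure D3:**
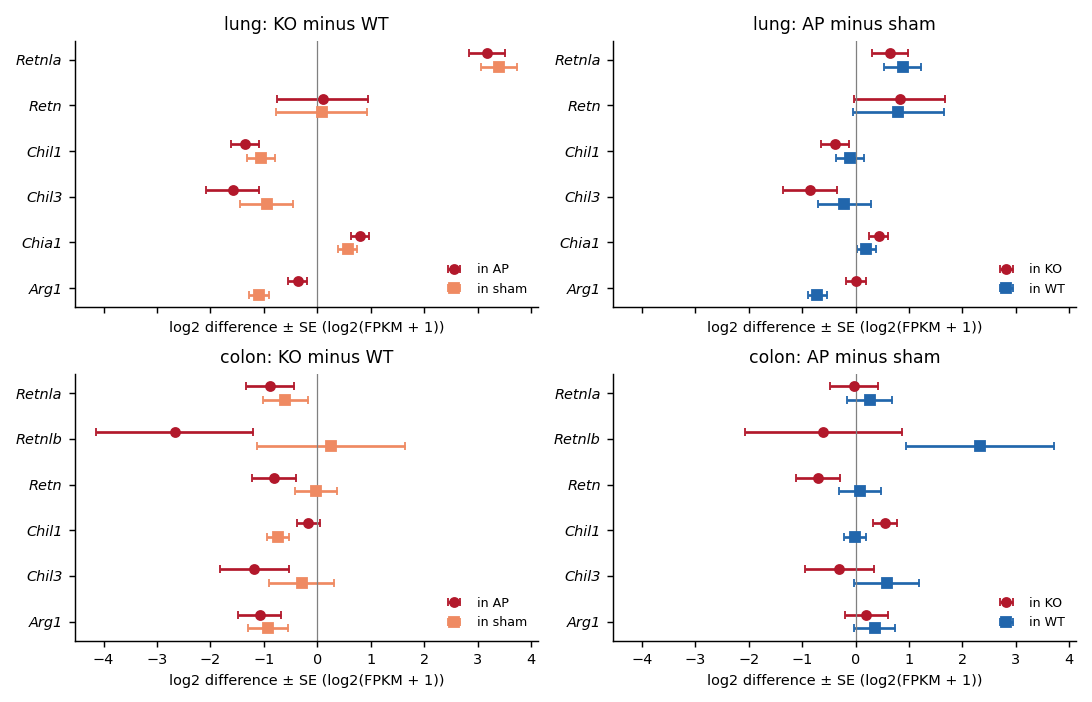
Differences on the log2(FPKM + 1) scale ± SE for the genes that passed the filter, KO minus WT on the left and AP minus sham on the right, lung above and colon below. In lung Retnla stands at 3.17 and 3.40 for KO minus WT, and no AP minus sham difference passed the threshold.

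For pancreatitis against sham operation, none of the 6 lung genes passed limma's threshold for AP against sham in KO (1 at an unadjusted p under 0.05, Chia1) or in WT (2, Arg1 and Retnla), where 0.0125% and 0.0814% of all genes passed (in WT 0.025% as higher and 0.0563% as lower). In KO lungs Retnla differed by 0.64 ± 0.34 (SE; limma adjusted p = 0.394; 1.11 without the 3 least alike libraries, 0.99 with KO sham replicate 5 left out and 0.43 with KO AP replicate 4 left out) and Chia1 by 0.43 ± 0.17 (adjusted p = 0.29). In WT lungs Retnla differed by 0.88 ± 0.34 (limma adjusted p = 0.602). Arg1 was 1.10 FPKM on average in WT lungs with AP, against 2.55 FPKM in WT lungs with sham, a difference of -0.71 ± 0.18 (limma adjusted p = 0.25); in 4 of the 5 WT lungs with AP the level was below every WT lung with sham. The AP response of Arg1 in KO minus that in WT was 0.73 ± 0.26 (limma adjusted p = 0.5), and none of the 6 genes passed for this difference of responses (1 at an unadjusted p under 0.05), as was so for 0% of all genes.

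**Figure D4:**
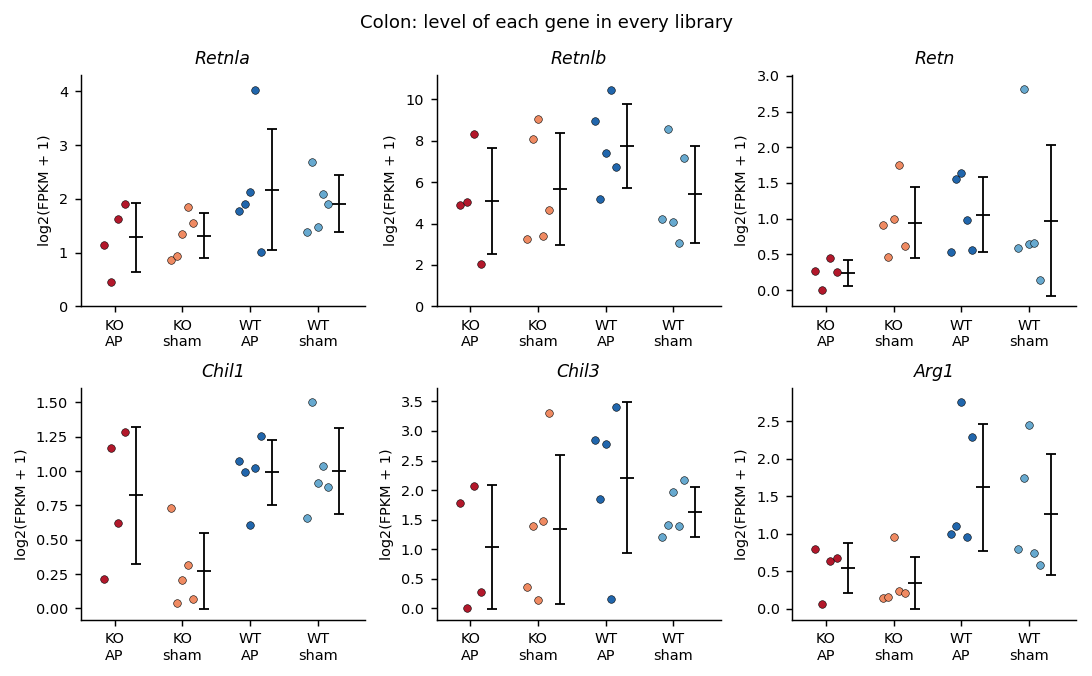
Level of 6 genes in every colon library, as log2(FPKM + 1), by group; each point is 1 library and the bar beside it is the group's mean ± SD. Retnlb covers a range of 3.12 to 1411 FPKM with all 4 groups overlapping, and the other genes lie near 0 to 4 on this scale.

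In colon the dominant gene was Retnlb, and it varied more within groups than between them. With AP it was at 29.2, 31.7, 316 and 3.12 FPKM in KO colons, against 489, 35.6, 170.3, 1411 and 105 FPKM in WT colons. With sham operation it was at 8.65, 267, 522, 9.42 and 23.9 FPKM in KO colons, against 17.8, 379.9, 15.8, 7.27 and 144 FPKM in WT colons. All 4 groups overlapped, from 3.12 FPKM in a KO colon with AP to 1411 FPKM in a WT colon with AP. The recovered reads of this single-transcript gene ran from 211 to 68548 per colon library, so the range is not one of counting error. The KO minus WT difference was -2.67 ± 1.47 in AP (SE; limma adjusted p = 0.213), the AP minus sham difference in WT was 2.33 ± 1.38 (adjusted p = 0.806), and the difference of the AP responses, KO minus WT, was -2.93 ± 2.02 (adjusted p = 0.442). Without the 3 least alike libraries the KO minus WT difference in AP was -4.21 (limma adjusted p = 0.0994) and that of the responses -4.73 (adjusted p = 0.224), and without KO AP replicate 5 they were -1.66 and -1.92. None is beyond the spread, and differences of this size cannot be settled with these libraries. Goblet cell markers were lower in 7 of 10 and higher in 0 of 10 in KO with AP, and lower in 3 and higher in 0 of 10 in KO with sham. Their summed level was 3074 to 5496 FPKM in KO colons with AP, 4829 to 8596 FPKM in KO colons with sham, 8174 to 19243 FPKM in WT colons with AP and 8300.0 to 16055 FPKM in WT colons with sham. WT replicate 4 with AP was the highest in both Retnlb and the markers, but KO replicate 4 with AP held 316 FPKM of Retnlb at a low marker sum. The part of goblet cells in the Retnlb levels was not tested. The genes most like Retnlb with group means taken out were Ppp1r15b, Nus1 and Pard6b (r = 0.869, 0.837 and 0.835 over 19 libraries).

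The other genes were low in colon. None of 6 passed limma's threshold for KO against WT in AP (1 at an unadjusted p under 0.05, Arg1), where 18.3% of all genes passed, 7.37% as higher and 10.9% as lower. In sham 1 of 6, Chil1, passed as lower, where 31.4% of all genes passed, 16% as higher and 15.4% as lower. On the TPM scale the genes past the threshold in colon were 541 higher and 1762 lower in AP, and 1249 higher and 2683 lower in sham. The median difference of the 6 genes was -0.98 in AP and -0.44 in sham, beside -0.01 and 0.01 over all genes. Counts of the marker and target lists in colon are to be read against the shares of all genes. Chil1 was at 0.656, 0.0280, 0.154, 0.243 and 0.0480 FPKM in KO colons with sham, against 0.577, 1.83, 0.887, 1.05 and 0.845 FPKM in WT colons with sham. Only the highest KO library reached the lowest WT library. In KO colons with sham Chil1 fell by 0.73 ± 0.21 on the log2 scale (SE; limma adjusted p = 0.013), or -2.03 with a pseudocount of 0.1. In KO colons with AP it was at 0.160, 1.25, 0.540 and 1.44 FPKM and in WT colons with AP at 1.10, 0.991, 0.527, 1.03 and 1.39 FPKM, with wide overlap. The AP minus sham difference of Chil1 in KO colons was 0.55 ± 0.22 (limma adjusted p = 0.194; 0.90 and adjusted p = 0.0455 without the 3 least alike libraries, which leaves 2 KO colons with AP and 4 with sham).

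Arg1 in colon was at 0.741, 0.0412, 0.557 and 0.597 FPKM in KO with AP, against 0.987, 1.14, 5.74, 0.942 and 3.91 FPKM in WT with AP, with every KO colon below every WT colon. Among sham libraries it was at 0.104, 0.115, 0.943, 0.174 and 0.157 FPKM in KO colons, against 0.733, 2.35, 4.46, 0.672 and 0.492 FPKM in WT colons, with overlap through KO replicate 3. The KO minus WT difference was -1.08 ± 0.40 in AP (SE; limma adjusted p = 0.0692) and -0.92 ± 0.38 in sham (adjusted p = 0.0716), neither past the threshold. Only WT colons reached 1 FPKM, so Arg1 passed the filter in colon only through the genotype where it is high. Its p-values in colon are therefore no support for a lower level in KO, in any setting. The AP difference passed without WT AP replicate 4 (-1.24, limma adjusted p = 0.0461) and without WT sham replicate 3 (-1.08, adjusted p = 0.0447). The sham difference passed with a pseudocount of 0.1 (-2.07, limma adjusted p = 0.0285) and without WT AP replicate 3 (-0.92, adjusted p = 0.0480). Monocyte and macrophage markers were lower in 7 of 11 in KO colons with AP and in 9 of 11 in KO colons with sham, and higher in none. Their summed level was 121 to 308 FPKM in KO colons with AP, 134 to 594 FPKM in KO colons with sham, 292 to 875 FPKM in WT colons with AP and 432 to 547 FPKM in WT colons with sham; their part in the Arg1 levels was not tested.

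Retn in colon was at 0.201, 0, 0.367 and 0.189 FPKM in KO with AP, against 0.453, 1.93, 2.11, 0.975 and 0.472 FPKM in WT with AP, without overlap. It was at 0.882, 0.379, 0.988, 2.37 and 0.529 FPKM in KO colons with sham and 0.506, 6.06, 0.569, 0.579 and 0.105 FPKM in WT colons with sham, where WT replicate 2 stood apart. The difference in AP, KO minus WT, was -0.81 ± 0.41 (SE; limma adjusted p = 0.179), and -0.81 with an adjusted p of 0.0373 without WT sham replicate 2, which sets part of the shared variance. Adipocyte markers were lower in 3 of 9 and higher in 1 of 9 in KO colons with AP than in WT colons with AP; they summed to 29.4 to 73.5 FPKM in KO colons with AP, 34.6 to 92.0 FPKM in KO colons with sham, 61.7 to 129 FPKM in WT colons with AP and 88.9 to 246 FPKM in WT colons with sham, the highest in WT sham replicate 2. Adipoq was again the gene most like Retn with group means taken out (r = 0.845 over 19 libraries), and the part of adipose tissue was not tested.

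Retnla in colon was at 1.19, 0.373, 2.09 and 2.76 FPKM in KO with AP and 2.44, 2.76, 3.38, 15.3 and 1.01 FPKM in WT with AP. It was at 0.809, 0.924, 1.56, 2.62 and 1.94 FPKM in KO with sham and 1.60, 5.44, 1.79, 3.26 and 2.74 FPKM in WT with sham. All groups overlapped, and the KO minus WT difference in AP was -0.89 ± 0.45 (SE; limma adjusted p = 0.178), or -0.43 without WT AP replicate 4, the library at 15.3 FPKM. Chil3 in colon was at 2.44, 0, 3.21 and 0.208 FPKM in KO with AP and 6.20, 2.61, 5.90, 0.121 and 9.59 FPKM in WT with AP. It was at 0.281, 1.63, 0.0998, 1.79 and 8.88 FPKM in KO with sham and 1.3, 1.65, 2.91, 1.61 and 3.5 FPKM in WT with sham. The KO minus WT difference in AP was -1.18 ± 0.65 (SE; limma adjusted p = 0.213), and -2.08 (adjusted p = 0.0294) without the 3 least alike libraries. None of the 6 genes passed for AP against sham in KO colons (limma; 1 at an unadjusted p under 0.05, Chil1), where 0.04% of all genes passed (0.02% as higher and 0.02% as lower), or in WT colons (0 at an unadjusted p under 0.05), where 0% passed, and none passed for the difference of the responses (0 at an unadjusted p under 0.05), where 0% passed.

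Relatives outside the 8 genes were read in lung next to them. Chit1, chitotriosidase, the other active chitinase of mammals, was at 1.71 FPKM on average in KO lungs with AP and 0.135 FPKM in WT lungs with AP. With sham operation it was at 2.69 FPKM in KO lungs and 0.0371 FPKM in WT lungs. Chit1 rose in KO by 1.22 ± 0.31 in AP (SE; limma adjusted p = 0.00292) and by 1.60 ± 0.31 in sham (adjusted p = 0.000251). At these means no WT lung can have reached 1 FPKM, so Chit1 passed the filter only through KO lungs. Its p-values are therefore no support for a higher level in KO. Chid1, a chitinase-domain protein that binds stabilin, rose by 0.61 ± 0.12 in AP and 0.75 ± 0.12 in sham, and Ctbs, the lysosomal di-N-acetylchitobiase, fell by 0.77 in AP and fell by 0.75 in sham. Retnlg, a resistin-like gene of neutrophils next to Retnla on chromosome 16, did not pass, at -0.13 ± 0.62 in AP and 1.40 ± 0.62 in sham (limma adjusted p = 0.0606). Its longest transcript is 84.5% identical to that of Retnla, with a longest identical run of 49 bases. Of the 7 relatives 5 passed the filter in lung, and 2 were higher and 1 lower in KO in each treatment; Chil5 and Chil6 were near 0. The 7 summed to 29.9 to 391 FPKM in KO lungs with sham, a wide spread, and 26.0 to 53.5 FPKM in WT lungs with sham. With AP the sum was 50.4 to 101 FPKM in KO lungs and 57.5 to 114 FPKM in WT lungs.

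The receptors and binding partners named for these proteins did not share a direction. Of 5 tested in lung, 1 was higher and 3 lower in KO with AP, and 1 higher and 2 lower with sham. Tlr4 and Cap1, proposed receptors of resistin, fell in AP, with differences of -0.54 and -0.58. Tmem219, a partner of IL-13Rα2 in binding the human counterpart of Chil1, rose by 0.67 ± 0.16 in AP and by 1.01 ± 0.16 in sham.

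Upstream of these genes, the type 2 pathway in lung was read from lists drawn up from general knowledge. Beside each count of these lists, 27.6% of all genes tested were higher and 28.1% lower in KO with AP. With sham operation the shares were 28.8% and 30%. Of 7 ligand genes 3 passed the filter; in AP 2 (Il4 and Tslp) were higher and 1 (Il33) lower in KO, and in sham 1 (Il33) was lower. On the TPM scale Tslp lost its call in AP (0.37, limma adjusted p = 0.112), which leaves 1 higher and 1 lower. Il4, the cytokine that drives alternative activation, averaged 2.48 FPKM in KO lungs with AP and 1.23 FPKM in WT lungs with AP, a rise of 0.63 ± 0.18 on the log2 scale (SE; limma adjusted p = 0.00553). With sham operation Il4 averaged 1.67 FPKM in KO lungs and 1.31 FPKM in WT lungs, a difference of 0.16 ± 0.18 (adjusted p = 0.468). Il13 was at or near 0 in all 4 lung groups, with means of at most 0.0286 FPKM.

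Of 8 receptor genes 6 passed the filter; 3 were lower and 0 higher in KO with AP, and 2 lower and 1 higher in KO with sham (3 lower and 1 higher on the TPM scale). Il4ra, the receptor chain that both cytokines use, fell to 16.3 FPKM in KO lungs with AP, against 40.4 FPKM in WT lungs with AP, a difference of -1.32 ± 0.23 on the log2 scale (SE; limma adjusted p = 8.76e-05). With sham operation it fell to 23.5 FPKM in KO lungs, against 46.0 FPKM in WT lungs, a difference of -1.03 ± 0.23 (adjusted p = 0.000707). Il13ra1, its partner for interleukin 13, differed by 0.07 ± 0.12 in AP and 0.13 ± 0.12 in sham and did not pass. Il4ra mRNA was lower and Retnla mRNA higher in KO lungs, where most of the genes tested differed. A link between them was not tested. In colon Il4ra was lower too, with differences of -1.37 ± 0.21 in AP (limma adjusted p = 0.00086) and -0.69 ± 0.20 in sham (adjusted p = 0.0154).

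All 9 signalling genes passed the filter. In KO 1 was higher and 4 lower with AP, and 1 higher and 5 lower with sham. Over all genes, 55.8% in AP and 58.8% in sham were past the threshold in either direction. Stat6, the transcription factor of the pathway, fell by 0.28 ± 0.11 in AP (SE; limma adjusted p = 0.0392) and fell by 0.41 ± 0.11 in sham (adjusted p = 0.00414). Jak1, a kinase bound to these receptors, fell by 1.29 ± 0.16 in AP and fell by 1.21 ± 0.16 in sham. Socs1, which dampens the signal and is induced by it, was the gene that rose, by 0.68 ± 0.18 in AP and 0.66 ± 0.18 in sham.

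Other known targets of interleukin 4 and 13 did not share a direction in lung. Of 21 listed 15 passed the filter; 3 were higher and 6 lower in KO with AP, and 4 higher and 4 lower in KO with sham, with median differences of -0.54 and 0.21 beside 0.00 and -0.01 over all genes. Tgm2, a transglutaminase of alternatively activated macrophages and endothelium, fell, with differences of -1.57 in AP and -1.42 in sham, and Flt1, a receptor for VEGF, did so with -1.62 in AP and -1.70 in sham. Ccl8, a chemokine of macrophages, differed by -0.25 ± 0.30 in AP, which did not pass, and rose by 1.65 ± 0.30 in sham (SE; limma adjusted p = 0.000139). On the TPM scale the counts were 1 higher and 9 lower in AP and 2 higher and 4 lower in sham. Cdh1 and Clec10a, higher in AP by 0.56 and 0.48, lost their call there. In colon 14 of the targets were tested. In KO 9 were lower and 0 higher with AP, and 6 lower and 0 higher with sham. Of all colon genes tested, 10.9% were lower and 7.37% higher in AP, and 15.4% lower and 16% higher in sham.

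Around arginase, of 9 genes of arginine and polyamine metabolism tested 5 were higher and 0 lower in KO lungs in each treatment, beside 27.6% of all genes higher in AP and 28.8% in sham, or 3 higher in AP and 4 higher and 1 lower in sham on the TPM scale. Odc1, which turns arginase's product ornithine into putrescine, averaged 117 FPKM in KO lungs with AP and 33.7 FPKM in WT lungs with AP, a rise of 1.71 ± 0.28 (SE; limma adjusted p = 5.28e-05). With sham operation Odc1 averaged 138 FPKM in KO lungs and 32.2 FPKM in WT lungs, a rise of 1.89 ± 0.28 (adjusted p = 1.52e-05). Sms, spermine synthase, rose by 0.68 ± 0.12 in AP and 0.59 ± 0.12 in sham. Arg2, the mitochondrial arginase, did not pass, at -0.24 ± 0.19 in AP and 0.42 ± 0.19 in sham, the opposite sign to Arg1 in the second.

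The product of Retnla is also known in mice as hypoxia-induced mitogenic factor, so hypoxia targets were read too. Of 11 tested 4 were higher and 1 lower in KO lungs with AP, and 5 higher and 5 lower in KO lungs with sham. Over all genes 27.6% were higher and 28.1% lower in AP, and 28.8% and 30% in sham. On the TPM scale 2 of the 11 were higher and 3 lower in AP, and 2 higher and 5 lower in sham. The glycolytic genes Ldha and Pgk1 rose by 1.58 ± 0.20 and 1.46 ± 0.23 in AP (SE; limma adjusted p = 4.10e-06 and 4.32e-05), and by 1.56 ± 0.20 and 1.65 ± 0.23 in sham. Adm, adrenomedullin, differed by -0.30 ± 0.30 in AP, which did not pass, and by -1.53 ± 0.30 in sham, a fall (SE; limma adjusted p = 0.000225).

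**Figure D5:**
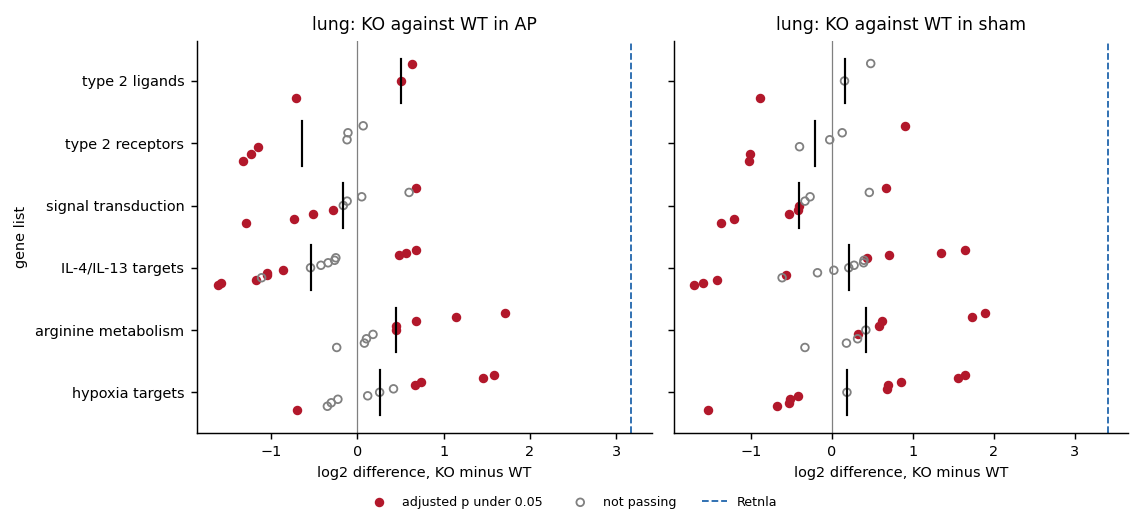
Differences of single genes, KO minus WT in lung, on the log2(FPKM + 1) scale in AP and in sham, by gene list; filled points passed the threshold, open points did not, the black bar is the list's median and the dashed line is Retnla. The dashed line, at 3.17 in AP and 3.40 in sham, lies to the right of every listed gene, and the targets of interleukin 4 and 13 lie on both sides of 0.

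Over all 20 lung libraries the genes whose log2(FPKM + 1) was most like that of Retnla were H2afz, Pold1 and Nanp (Pearson r = 0.971, 0.956 and 0.953), points that share genotype and depth. With each group's mean taken out they were Fcrls, Eipr1 and Rpa2 (r = 0.893, 0.861 and 0.832). Chia1 was then most like Kxd1, Cab39l and Pdf (r = 0.856, 0.839 and 0.819). Arg1 was most like Prg4, Alox15 and Ccl9 (r = 0.738, 0.735 and 0.712), of which Alox15, a lipoxygenase of resident macrophages, is in the list of type 2 targets. In colon Chil3 was most like Cxcl9, Gbp4 and Gbp5 (r = 0.847, 0.832 and 0.825 over 19 libraries), genes induced by interferon. These are descriptions over libraries, picked as the highest among all genes that passed the filter.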

How the data were processed

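Total RNA was extracted with Trizol, enriched for messenger RNA and sequenced on an Illumina NovaSeq instrument, per the labels' protocols. The submitters' processing notes list StringTie 1.3.3b, HISAT2 2.1.0 and mm39, with no roles; annotation, trimming and strand setting are not stated there. The deposited values are FPKM, made by the authors, in 1 table for lung and 1 for colon, each with 55357 Ensembl genes, of which 52081 had a symbol.

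FPKM removes length and depth but not differences in composition, so the values were also rescaled per library to one common total (TPM scale) and by the upper quartile. Depth per library was worked out from the steps between low values of genes with a single transcript; 98.4% to 99.1% of these came out whole within 0.01 read. Other genes were not worked out this way, and no count test was run.

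Libraries were grouped by tissue, genotype and treatment. Tests took the 15978 lung genes and 15001 colon genes that reached 1 FPKM in 4 or more libraries, as log2(FPKM + 1) with limma 3.58.1 in R 4.3.3 (1 mean per group, variances that follow the level, two-sided, Benjamini-Hochberg). Tables and figures were made with Python 3.11.15, pandas 2.3.3, numpy 2.4.6 and matplotlib 3.10.9. The procedure was tested on simulated libraries. The genes, the 18 lists of 172 further genes and the rules were chosen with earlier results of these data known. All 8 genes are named, relatives above 0, the up to 3 genes of a list with the lowest p in a contrast, Il4, Il13, Il4ra, Il13ra1 and Stat6, and the 3 genes most like each of the 8. Named outside this rule, after their values were seen, were Arg2, Sftpc and Gkn1, Siglecf, Ccl8, Adm, Cdh1 and Clec10a in AP, and Socs1 in sham. The list gene Ear11 was not matched. Alternatives were another pseudocount, no filter, the 2 scalings, the compared groups alone, the replicate number as a block, each library left out in turn and, added after the data were seen, the 3 least alike libraries of a tissue left out. Promoters are from RefSeq (GRCm38.p6) and transcripts from GENCODE M21; no coordinates were carried to mm39.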

Additional observations from a re-analysis of the deposited data

Results flagged for a closer look

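In 60 sets of 1 gene in 1 group with any spread, the highest or lowest library was set apart from the rest by Dixon's criterion in 16. The criterion's rate of about 1 in 20 holds for normally distributed values. It was applied to FPKM without a log, and a set with 1 library above 0 and 4 at 0 always meets it. So the 16 cannot be set against that rate. For genes near 0 in lung, being set apart means that 1 library was above 0 and the other 4 were listed at 0: Retnlb in WT lung with AP replicate 1 (0.0908 FPKM) and Chil4 in KO lung with AP replicate 3 (0.136 FPKM). In colon the like cases were Chil4 in WT with sham replicate 3 (0.00848 FPKM) and Chia1 in KO with sham replicate 4 (0.0578 FPKM).

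KO lung with AP replicate 3 stood apart for Retn (92.7 FPKM, the other 4 between 0.145 and 1.22), for Chil4 as above and for Arg1 (1.28 FPKM, the other 4 between 0.362 and 0.607). Retn also had a single high library in KO lung with sham replicate 2 (6.40 FPKM), WT lung with sham replicate 1 (2.56 FPKM) and WT colon with sham replicate 2 (6.06 FPKM). Retnla was high in KO lung with sham replicate 5 (1181 FPKM, the other 4 between 303 and 470.3) and in WT colon with AP replicate 4 (15.3 FPKM, the other 4 between 1.01 and 3.38).

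Chil1 was high in WT lung with AP replicate 4 (454 FPKM, the other 4 between 356 and 377), and Chil3 low in WT lung with sham replicate 5 (143 FPKM, the other 4 between 269 and 287). In colon Retnlb was high in KO with AP replicate 4 (316 FPKM, the other 3 between 3.12 and 31.7), Chil3 in KO with sham replicate 5 (8.88 FPKM) and Arg1 in KO with sham replicate 3 (0.943 FPKM, the other 4 between 0.104 and 0.174). The causes were not tested.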

How the results depend on the processing

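For 27 differences of the 8 genes that the report gives, 693 values under alternatives kept their direction and side of the threshold, 14 passed it, 1 lost it and 9 changed sign. The tally takes in KO against WT in lungs with AP, for which no call is given, and is no support for a call there. The 9 are all Retn in lung, whose KO minus WT difference turned to -0.54 in AP and -0.26 in sham with a pseudocount of 0.1, to -0.22 and -0.14 on the TPM scale, to -1.08 in AP without the 3 least alike libraries, and ran from -1.08 to 0.51 in AP and -0.40 to 0.32 in sham with each library left out. In AP the value without KO replicate 3 was -1.08.

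The number of genes, of the 6 tested, past the threshold in colon, KO against WT in AP, was 1 (Chil3) without the 3 least alike libraries in place of 0, and 0 to 1 with each library left out (Arg1 when WT AP replicate 4 or, in sham, WT replicate 3 is left out, Retn when WT sham replicate 2 is). In sham it was 2 (Arg1 and Chil1) in place of 1 with a pseudocount of 0.1, and 1 to 2 with each library left out, the 2 without WT AP replicate 3. For AP against sham in KO colon it was 1 (Chil1) without the 3 libraries in place of 0. With each library left out, Retnla in lung stayed between 2.95 and 3.30 in AP and between 3.06 and 3.55 in sham. The AP range describes the contrast in view when the genes were chosen and is no support for it. The cause of these changes was not tested.

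Same-numbered libraries did not deviate together: 6 of 30 pairs in lung and 7 of 27 in colon had a correlation over 0.1 (mean -0.02 and -0.07), so the numbers were not used as pairs. With the replicate block the genes past the threshold were 4 in lung in sham, 0 in colon in AP and 1 in sham, the same genes as without it; over all genes the block left 8722 and 9274 in lung and 2066 and 4129 in colon for KO against WT, and 1 and 8 for AP against sham in KO and WT lung and 0 in KO colon. Over all alternatives the count of all genes past the threshold ran from 8038 to 10006 (AP) and 8596 to 10112 (sham) for KO against WT in lung, and from 1781 to 3577 and 3473 to 5257 in colon, against 2743 and 4704 with all libraries (1781 without WT AP replicate 2 and 1817 without WT AP replicate 3). For AP against sham it ran from 0 to 229 in KO lung (2 with all libraries), 0 to 110 in WT lung (13; 110 when the compared groups were fitted alone), 0 to 1374 in KO colon (6) and 0 to 2 in WT colon (0), the highest in KO lung and KO colon without KO sham replicate 1. The difference of the AP responses gave 0 to 2 in lung and 0 to 1170 in colon (0 in both with all libraries), the highest in colon without KO sham replicate 1. Depth limits Retnlb in lung and Chil4 and Chia1 in colon, which were at or near 0, and intervals of such values cover counting error only; the pseudocount shrinks differences of genes near it, such as Arg1 in lung.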
